A study of Mus musculus with 9 samples.

Results

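The transcriptome described here is that of the olfactory mucosa of saline-treated control mice, as measured on the 3 arrays of the control group among the 9 arrays of a study of systemic dexamethasone. The arrays were chosen by their group label alone, and genes were then ranked by their mean signal over these 3 arrays and by their spread among them. The control animals were wild-type male C57BL/6 mice, 6 to 8 weeks old, that received saline for 2 weeks. The other 2 groups of 3 arrays came from mice of the same sex, strain and age given dexamethasone at 1 mg/kg by the intraperitoneal route, for 1 day (D1) or daily for 2 weeks (WK2). They enter below only as a reference for how far a single array can stray, and treatments are not compared. Each group held 9 mice, of which the authors hybridised the 3 samples with what they judged optimal expression of olfactory marker protein. Since the samples were picked by Omp, its level and its evenness among arrays are no independent result. The labels do not say whether a sample is 1 mouse or a pool, so the spread between the 3 arrays may be partly technical.

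The olfactory mucosa lines the upper nasal cavity and consists of an epithelium on a connective tissue layer, the lamina propria. In the epithelium, olfactory sensory neurons carry odorant receptors on cilia and pass the signal through an olfactory G protein, adenylyl cyclase and a cyclic nucleotide-gated channel. Sustentacular cells support the neurons and detoxify inhaled compounds, horizontal and globose basal cells replace lost neurons throughout life, and Bowman's glands in the lamina propria secrete mucus proteins. The mucosa rests on the cartilage and bone of the septum and turbinates and borders on ciliated respiratory epithelium.

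The 4 markers named for this tissue were all measured, each by 1 probe. Scgb1c1, a secretoglobin of the nasal mucosa, gave intensities of 513119, 425954 and 504319 in control replicates 1, 2 and 3. Its mean signal was the highest of all features, although other probes read up to 514755 in replicate 1 and 442592 in replicate 2. Cyp2g1, a cytochrome P450 of sustentacular cells and Bowman's glands, gave 469440, 373325 and 432992, and Omp, made by mature olfactory neurons, 411529, 300267 and 300586. Both were among the 13 brightest named genes. Krt5, a keratin of horizontal basal cells, gave 5024, 6110.4 and 5800.0, at percentile 71.8 of all features. The first 3 markers were close to the top of the range on every array, and Krt5 was above the middle on every array.

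Probe intensity is in arbitrary units on a linear scale. The arrays held 26423 probes, which reduced to 23631 features: 19084 named genes, each represented by its brightest probe, and 4547 probes without a gene symbol. Levels were averaged as log2(intensity + 50), percentiles count from 0 for the dimmest to 100 for the brightest feature, and 3 intensities given for a gene are those of control replicates 1, 2 and 3 in that order. Probes differ in how well they hybridise, so the ranks order probe signals and not numbers of RNA molecules. Median intensities of the 3 arrays were 1383, 1202 and 1317. Over all features, log2 values of replicates 1 and 3 had a Pearson correlation of 0.993 across genes, against 0.986 for replicates 1 and 2 and 0.984 for replicates 2 and 3. Replicate 2 had the lowest lower quartile, 201 against 276 in replicate 1 and 255 in replicate 3, and gave the lowest of the 3 values for 55.2% of features. Dim genes therefore tended to read lower in replicate 2. With 3 arrays in 1 group there was no contrast to test, and all statements of spread are descriptions.

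Promoters of 8 genes are shown as examples, each holding a match to a motif, from the sets of genes described below: the secreted proteins Bpifa1 and Obp2a among the brightest genes, Cnga2 and Gfy among genes of mature olfactory neurons, and the neutrophil genes Ngp and Lcn2 and the erythroid genes Klf1 and Epb42 among the genes that set 1 array apart. Sequences are RefSeq promoters, 250 bases before to 50 bases after the start site, written 5′ to 3′ on the strand of the gene. Capitals mark TATAAA in the first pair, CCCNNGGG (the core of sites bound by EBF factors) in the second, TTGCNNAA (a C/EBP-type site) in the third and GATAAG (of the kind bound by the erythroid factor Gata1) in the last, on either strand.
Bpifa1, GRCm38.p6 chr2:154142630-154142929, plus strand: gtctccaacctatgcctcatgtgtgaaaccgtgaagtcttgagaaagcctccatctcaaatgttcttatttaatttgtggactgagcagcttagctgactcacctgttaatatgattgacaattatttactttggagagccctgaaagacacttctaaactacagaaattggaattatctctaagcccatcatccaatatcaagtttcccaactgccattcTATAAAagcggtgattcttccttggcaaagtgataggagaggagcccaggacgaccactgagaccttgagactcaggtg
Obp2a, GRCm38.p6 chr2:25699824-25700123, plus strand: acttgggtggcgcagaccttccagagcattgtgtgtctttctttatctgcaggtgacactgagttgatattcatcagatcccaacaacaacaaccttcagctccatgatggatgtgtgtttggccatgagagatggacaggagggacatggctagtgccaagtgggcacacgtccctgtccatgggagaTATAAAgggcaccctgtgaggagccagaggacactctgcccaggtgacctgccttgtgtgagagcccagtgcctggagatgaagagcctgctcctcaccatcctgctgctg
Cnga2, GRCm38.p6 chrX:71991599-71991898, plus strand: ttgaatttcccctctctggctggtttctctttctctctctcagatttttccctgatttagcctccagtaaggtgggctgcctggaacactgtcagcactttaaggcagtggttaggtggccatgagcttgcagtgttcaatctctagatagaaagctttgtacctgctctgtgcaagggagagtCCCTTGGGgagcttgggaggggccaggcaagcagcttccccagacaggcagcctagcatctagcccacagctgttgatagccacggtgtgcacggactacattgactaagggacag
Gfy, GRCm38.p6 chr7:45179548-45179847, minus strand: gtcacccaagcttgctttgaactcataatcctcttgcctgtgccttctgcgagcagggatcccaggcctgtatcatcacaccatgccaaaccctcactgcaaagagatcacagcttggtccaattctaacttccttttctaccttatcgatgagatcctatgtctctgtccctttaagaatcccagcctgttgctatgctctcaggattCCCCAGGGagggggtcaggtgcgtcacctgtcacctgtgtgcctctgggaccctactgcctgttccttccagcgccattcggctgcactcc
Ngp, GRCm38.p6 chr9:110419558-110419857, plus strand: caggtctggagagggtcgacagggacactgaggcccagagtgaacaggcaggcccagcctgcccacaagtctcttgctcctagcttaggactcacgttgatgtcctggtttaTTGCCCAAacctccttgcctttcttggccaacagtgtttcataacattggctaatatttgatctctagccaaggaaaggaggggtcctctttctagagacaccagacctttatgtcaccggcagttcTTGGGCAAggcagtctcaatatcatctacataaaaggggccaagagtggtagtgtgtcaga
Lcn2, GRCm38.p6 chr2:32387690-32387989, minus strand: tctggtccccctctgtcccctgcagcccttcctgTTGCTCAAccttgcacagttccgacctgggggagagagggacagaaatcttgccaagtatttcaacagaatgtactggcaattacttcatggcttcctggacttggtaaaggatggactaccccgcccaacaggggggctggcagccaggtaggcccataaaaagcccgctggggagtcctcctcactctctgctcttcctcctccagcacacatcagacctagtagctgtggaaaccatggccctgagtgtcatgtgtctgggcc
Klf1, GRCm38.p6 chr8:84901732-84902031, plus strand: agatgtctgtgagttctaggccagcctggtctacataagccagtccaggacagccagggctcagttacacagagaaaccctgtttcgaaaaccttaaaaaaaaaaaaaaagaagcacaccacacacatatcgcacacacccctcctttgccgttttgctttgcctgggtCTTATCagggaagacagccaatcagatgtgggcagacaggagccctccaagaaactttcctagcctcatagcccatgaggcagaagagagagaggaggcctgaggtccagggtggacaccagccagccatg
Epb42, GRCm38.p6 chr2:121036828-121037127, minus strand: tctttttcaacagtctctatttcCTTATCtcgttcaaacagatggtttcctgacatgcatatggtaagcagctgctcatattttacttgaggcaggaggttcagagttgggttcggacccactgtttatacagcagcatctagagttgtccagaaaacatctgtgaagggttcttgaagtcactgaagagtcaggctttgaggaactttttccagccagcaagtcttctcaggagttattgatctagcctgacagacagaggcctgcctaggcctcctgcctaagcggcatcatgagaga

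In all, 10 motifs were searched on both strands against 5 gene lists, and the motifs and the promoters shown were chosen after matches had been seen, so the counts describe the lists and carry no test. TATAAA was present in 9 of 25 promoters of the list of odorant-binding and secreted gland proteins, in 7 of 19 of the neutrophil list, in 0 of 23 promoters of mature neuron genes and in 14.8% of all 17492 protein-coding genes with a promoter. It began 29 bases before the start site in Bpifa1 and 61 bases before it in Obp2a. The promoters of mature neuron genes held CCCNNGGG in 13 of 23 cases, against 17.6% of all genes. A longer form with T before and A after it was in 1 of 23 (Gfy), against 1.12% of all genes, and one with a further C and G in 1 of 23, against 1.51%. CCCNNGGG itself was also in 6 of 25 gland protein, 6 of 19 neutrophil, 3 of 9 erythroid and 3 of 11 cartilage promoters. Each of these shares is above that of all genes. Among promoters of neutrophil genes 8 of 19 held TTGCNNAA, against 11.7% of all genes, and 10 of 19 held the looser TTNNGNAA, of which TTGCNNAA is a special case on the other strand, against 41.4%. The looser form was also found in mature neuron promoters, with 13 of 23. TTGCNNAA was also in 6 of 25 gland protein promoters, and in 1 of 23 mature neuron, 0 of 9 erythroid and 0 of 11 cartilage promoters. GATAAG was found in 5 of 9 erythroid promoters, in 3 of 11 cartilage promoters, in 4 of 25 gland protein promoters and in 8.07% of all genes. The remaining motifs were CAGATAAG, which contains GATAAG, with 1 of 9 erythroid promoters against 0.995% of all genes, TTAATTA with 1 of 23 mature neuron promoters against 3.10%, and TAATTG with 2 of 23 against 7.96%. A match is a run of letters and not a binding site, and nothing is read from its presence or absence.

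Secreted proteins, olfactory neuron genes and enzymes of xenobiotic metabolism occupied the top of the ranking. Of the 40 brightest named genes, 10 belonged to the list of odorant-binding and secreted gland proteins, 5 to the sustentacular or xenobiotic lists and 4 to the list of mature olfactory neurons, while 15 belonged to none of the 36 lists used. After Scgb1c1, the order of named genes was Bpifa1, Cyp2f2, Cyp2g1, Vmo1, Rpl41, Gpx6, Bpifb3, S100a5 and Obp2a. These neighbours cannot be ordered with confidence: Bpifa1 ranged from 429864 to 485099 over the arrays, and Cyp2f2, with 474535, 396789 and 424460, overlapped it. The 100 brightest features comprised 85 named genes and 15 unnamed probes, and 5 of the 10 brightest features were unnamed. Of the 85 named genes, 41 were on at least 1 list and 44 on none, among them Vmo1, Plekhb1, Stom, Cabs1, Wfdc18 and the transcription factor Atf5. The 100 brightest features carried 14.5%, 13.1% and 13.7% of the summed signal of the 3 arrays.

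**Figure D1:**
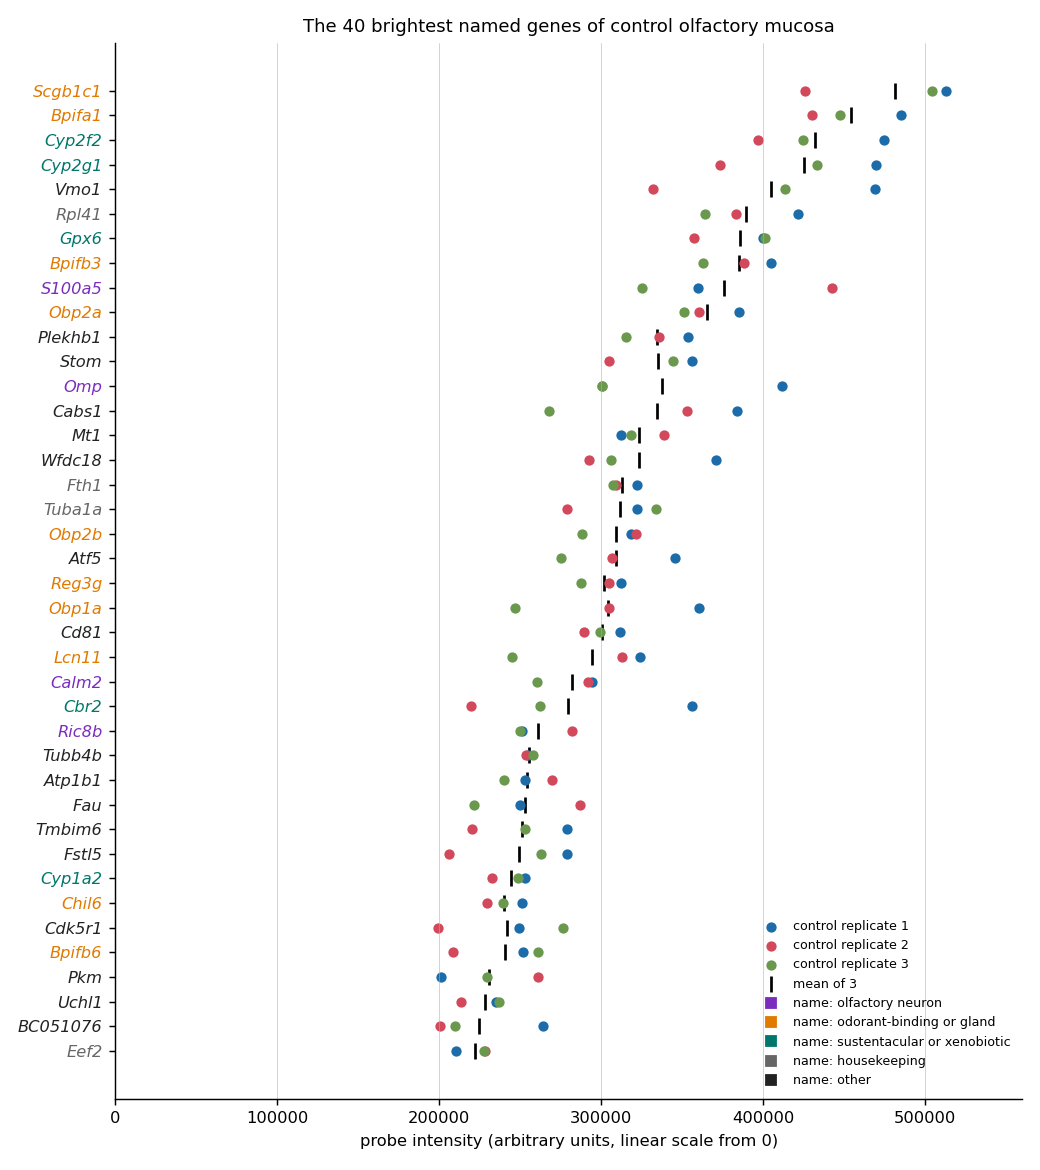
Probe intensity (linear axis from 0, arbitrary units) of the 40 brightest named genes on each of the 3 control arrays. Points are arrays, the black tick is the mean of 3, and gene names are coloured by list. Secreted proteins (orange) and detoxifying enzymes (green) fill most of the top rows, and the points of neighbouring genes overlap.

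The brightest genes were also among the most even. The median SD of the 100 brightest features over the 3 arrays was 0.14 on the log2 scale, against 0.21 for all features. Across all features, 7.28% (1721 of 23631) differed by more than 1 on the log2 scale, a 2-fold ratio, between the highest and the lowest array, whereas 1 of the 100 brightest did so. That gene was Pip, prolactin-induced protein of secretory glands, with intensities of 168035, 319724 and 145920 and its highest value in replicate 2. At the other extreme, Tubb4b, a beta-tubulin, gave 255018, 253816 and 257789. Scgb1c1 averaged 481131 ± 47987 (SD, n = 3), Cyp2g1 425252 ± 48522 (SD, n = 3) and Omp 337461 ± 64145 (SD, n = 3), with replicate 1 highest for all 3.

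Secreted proteins held many of the top ranks. Of 30 measured members of the list of odorant-binding and secreted gland proteins, 14 lay in the brightest 1% of features and 16 in the brightest 5%, and 11 were among the 100 brightest. BPI-fold proteins, which bind lipids and coat airway surfaces, were led by Bpifa1 with 485099, 429864 and 447247 and Bpifb3 with 404632, 388323 and 363098, followed by Bpifb6 with 251719, 208363 and 260895. All 3 varied little between arrays. The odorant-binding lipocalins Obp2a, Obp2b and Obp1a, which carry hydrophobic molecules in mucus, reached percentile 99.9 each, Obp2a with 385346, 360150 and 351217 and Obp1a with 360605, 305016 and 246611. Reg3g, an antibacterial lectin, gave 312133, 305041 and 287663, and Chil6, a chitinase-like protein, 251404, 229332 and 239121. The list was not bright throughout. Scgb1a1, the secretoglobin of bronchial club cells, gave 463, 214 and 528, at percentile 30.7. Bpifb2 gave 599.9, 319 and 585, so the secretoglobins and the BPI-fold proteins each had members near the top and in the dimmer 50%.

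Genes of mature olfactory neurons, including those of signal transduction, were bright as a list. Of its 29 measured genes, which include Omp, 25 lay in the brightest 5% and all 29 in the brighter 50% of features, with a median percentile of 98.9. In bulk tissue, fewer cells of a type and less RNA per cell cannot be told apart, so these percentiles describe the mucosa and not the neuron. S100a5, a calcium-binding protein of these neurons, gave 359779, 442592 and 325480 and was highest in replicate 2. Among signalling genes, Adcy3 (the adenylyl cyclase) gave 179413, 155366 and 197905 and the channel subunit Cnga2 143308, 151418 and 155137. The olfactory G-protein alpha subunit Gnal gave 76917, 102849 and 82402, and its exchange factor Ric8b gave 251300, 281926 and 250113. The calcium-activated chloride channel Ano2 gave 49557, 48533 and 50485, and the further channel subunits Cnga4 and Cngb1 had percentiles of 97.7 and 97.4. Of the receptor-trafficking genes, Rtp2 gave 140218, 140555 and 131523 and Rtp1 89001, 66088 and 81487. None of the 29 genes differed more than 2-fold between arrays. The widest was Stoml3, a stomatin-like protein of olfactory cilia, with 126851, 127529 and 64282, which was low in replicate 3.

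Genes of immature neurons were bright as well, and those of progenitors were intermediate. Of 25 immature neuron genes, 14 lay in the brightest 5% (median percentile 95.8), with Stmn1, a microtubule regulator, at 218936, 191446 and 224314 and Gap43, the growth cone protein, at 63284, 58727 and 64074. Lhx8 was the dimmest member, with 259, 223 and 272. Of 13 globose basal and neurogenic progenitor genes, 2 lay in the brightest 5% and the median percentile was 70.3. Hes6 gave 42588, 38627 and 50358 and Sox2, which sustentacular cells also express, 40771, 24333 and 41292. The proneural factors Neurod1 and Neurog1 were dimmer: Neurod1 gave 5827, 5534 and 6193. Neurog1 gave 3122, 1685 and 2751, and the stem cell receptor Lgr5 5229, 3679.7 and 6887. Proliferation genes had a median percentile of 60.0 over 22 members. Mki67 gave 11079, 11541 and 12104, whereas Cdk1 gave 120.3, 67.1 and 108, at percentile 12.4. Horizontal basal cell genes had a median percentile of 67.7 over 14 members with none in the brightest 5%, led by Krt14 with 17906, 16034 and 16359 and including Trp63, their defining transcription factor, with 2591, 2527 and 3068.

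Sustentacular and xenobiotic genes lay mostly near the top. Of 18 sustentacular genes, 10 lay in the brightest 5%, and of 32 genes of xenobiotic metabolism 16 did, with median percentiles of 96.9 and 95.6. Gpx6, a glutathione peroxidase of the olfactory epithelium, gave 399692, 356964 and 400904 and Cbr2, a carbonyl reductase, 356321, 219771 and 262281. Cyp1a2, known as a liver enzyme, gave 252717, 232670 and 248371, and the glucuronosyltransferase Ugt2a2 229067, 199499 and 224857. Ces1d, Aox1 and Gstm1 were dimmer, at percentiles 74.5, 49.5 and 46.2. Krt8 and Krt18, a keratin pair that marks sustentacular cells, went against their list. The single Krt8 probe gave 0 in replicate 1 and values just below 0 in the other 2, the dimmest percentile of all, and Krt18 gave 895, 493 and 515. A single probe near 0 is not read here as absence of its transcript. The same holds for Rps29, a ribosomal protein gene, with 13.6, 30.1 and 12.6, and for S100a8, with 597, 465 and 643, whose partner in calprotectin, S100a9, was bright.

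Respiratory, stromal and skeletal genes were present at lower ranks. Of 24 genes of ciliated respiratory cells, 9 lay in the brightest 5%. The tubulins Tuba1a and Tubb4b, at the top of that list, are shared with other cells, and Foxj1, the ciliogenesis factor, gave 17516, 25402 and 20348. Fibroblast and matrix genes held 7 of 21 members in the brightest 5%, led by the proteoglycan Dcn with 193929, 180552 and 174590. Among vessel genes Plvap, a protein of fenestrated endothelium, gave 117424, 101966 and 126622, and among osteoclast genes Ctsk, a bone-resorbing protease, 51937, 55757 and 54587. The osteoblast list held 3 of 13, including Ibsp, bone sialoprotein, with 94773, 77240.1 and 99628, and Sost, made by osteocytes, was at percentile 34.3. Among glial genes, Apoe gave 124320, 168393 and 121954 and Sox10 17598, 22279 and 19621, while Gfap gave 303, 251 and 565. Microvillous and tuft cell genes had a median percentile of 46.7 over 18 members, with Ascl3 at 25514, 17772 and 24666 and Trpm5, the taste-type cation channel, at 3397, 2788 and 3037. Skeletal muscle genes had a median percentile of 30.6 over 16 members, and 15 of them lay in the dimmer 50%. Adipocyte genes had a median percentile of 21.0 over 11 members.

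Lists of housekeeping genes and of proteins made elsewhere showed how far the ranking can be read. Oxidative phosphorylation genes had a median percentile of 96.8 (34 members), led by Cox8a with 199840, 176335 and 197763. Cytosolic ribosomal protein genes, which are abundant in every cell, had a median percentile of 54.7 over the 26 of 53 that were measured, with Rpl41 among the 10 brightest named genes and Rpsa at percentile 19.6. The rank of a single probe can thus be far from the abundance of its transcript. Proteins specific to other tissues, such as milk, pancreatic and sperm proteins, had a median percentile of 27.1 over 33 genes, with 0 in the brightest 5% and 14 in the dimmest 25%. The brightest of them was Aqp2, the water channel of the kidney collecting duct, with 13298, 7374 and 12765. Genes induced by glucocorticoids, the hormone class of the study's drug, were bright in these saline-treated mice, with a median percentile of 87.9 over 19 genes. They included the metallothionein Mt1 with 311989, 338636 and 318423, Tsc22d3 (the leucine zipper protein GILZ) with 40766, 44463 and 46275 and the chaperone Fkbp5 with 4432, 5381 and 4535.

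Odorant receptors, each used by a small share of olfactory neurons, and other chemoreceptors were dim as families. The 550 odorant receptor genes measured had a median percentile of 35.8, and 0 lay in the brightest 5%. Olfr1358 was the brightest, with 14785, 9126 and 13159, at percentile 84.4, followed by Olfr711 with 12404, 14494 and 8909 and Olfr1507 with 13546, 12642 and 7279. Olfr1507 read lowest in replicate 3 and Olfr1358 in replicate 2. Of the 550, 62 (11.3%) differed by more than 2-fold between arrays, against 7.28% of all features and 10.5% of the dimmer 50%, and 114 of the family lay in the brighter 50%. Among the 100 most variable features was Olfr214, with 19504, 3676 and 14873. The 7 trace amine receptors had a median percentile of 21.0, with Taar1, which is not known as an olfactory receptor, brightest at 1831, 928 and 1640.1. The 36 type 1 and 10 type 2 vomeronasal receptors had medians of 21.7 and 13.1, and 37 taste receptors one of 17.6. The median odorant receptor gene lay above the medians of the other receptor families and of the 33 proteins of other tissues, and below the middle of all features.

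**Figure D2:**
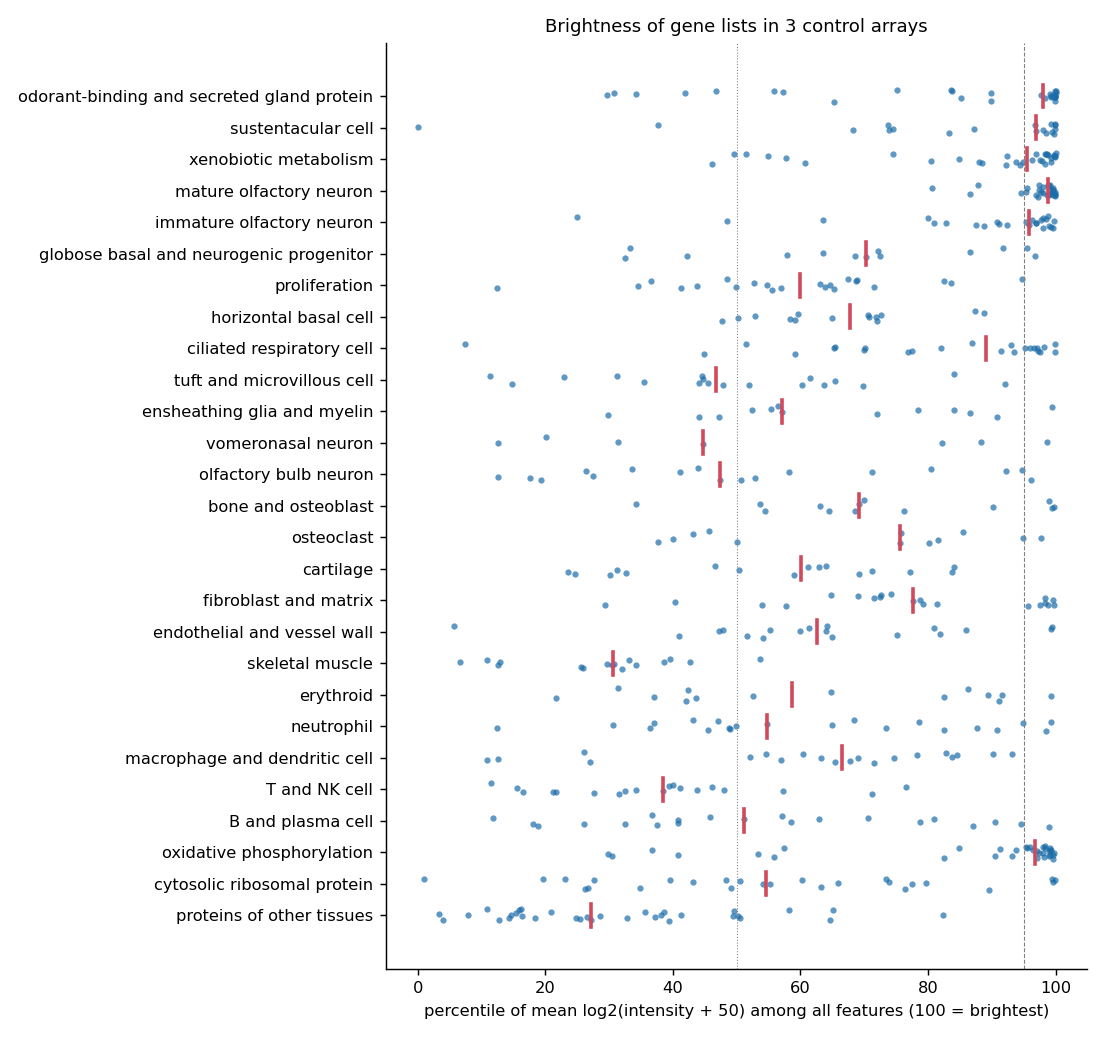
Percentile of mean log2(intensity + 50) of every measured member of 27 gene lists (points) over the 3 control arrays, with the list median in red. The dotted line marks the 50th and the dashed line the 95th percentile. Medians of the mature and immature olfactory neuron, sustentacular, xenobiotic, gland and oxidative phosphorylation lists lie beyond the dashed line. Those of the vomeronasal neuron and olfactory bulb neuron lists lie below the dotted line. Of the lists shown, skeletal muscle and proteins of other tissues have the lowest medians. The adipocyte list, not drawn, is lower, with 21.0.

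Several of the brightest genes are neighbours on their chromosomes. Among the 85 named genes within the 100 brightest features, 16 formed 9 pairs no more than 5 protein-coding genes apart in the RefSeq order of GRCm38.p6. Pairs in other sets of genes were not counted, so whether 9 pairs are many or few cannot be said. The lipocalins Obp2a, Obp2b and Lcn11 form a run on chromosome 2, and Bpifb6, Bpifb3 and Bpifa1 form another there. The remaining pairs were Cyp2g1 and Cyp2f2 on chromosome 7, the metallothioneins Mt2 and Mt1 on chromosome 8, the calcium-binding S100a5 and S100a6 on chromosome 3, Rpl41 and Rps26 on chromosome 10, and Hint1 and Gpx3 on chromosome 11. Related sequences within these families may share probe signal, which was not tested.

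Most features that varied between the control arrays belonged to no list, but members of a few lists varied together, most often in replicate 2. Of the 100 most variable features described next, 13 were on the neutrophil, erythroid or cartilage lists and 2 on the olfactory bulb list. In the brighter 50% of features, 4.08% (482 of 11816) differed by more than 2-fold between the highest and the lowest array. The 100 most variable features of this range, by SD of log2 values, comprised 82 named genes and 18 unnamed probes. Replicate 2 was the highest array for 56 of them, replicate 3 for 25 and replicate 1 for 19. Over the brighter 50% of features as a whole, replicate 2 was highest for 40.1%, replicate 3 for 32.2% and replicate 1 for 27.7%. The SD ran from 3.48 for the first feature to 0.84 for the hundredth, and the next feature also had 0.84, so the end of the list is arbitrary. Much of the spread rests on replicate 2: without it, 351 of 23631 features, and not 1721, had a range above 1 between the 2 arrays left, and 34 of the 100 most variable remained. Without replicate 1 the count was 1255, with 67 remaining, and without replicate 3 it was 1037, with 52 remaining.

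**Figure D3:**
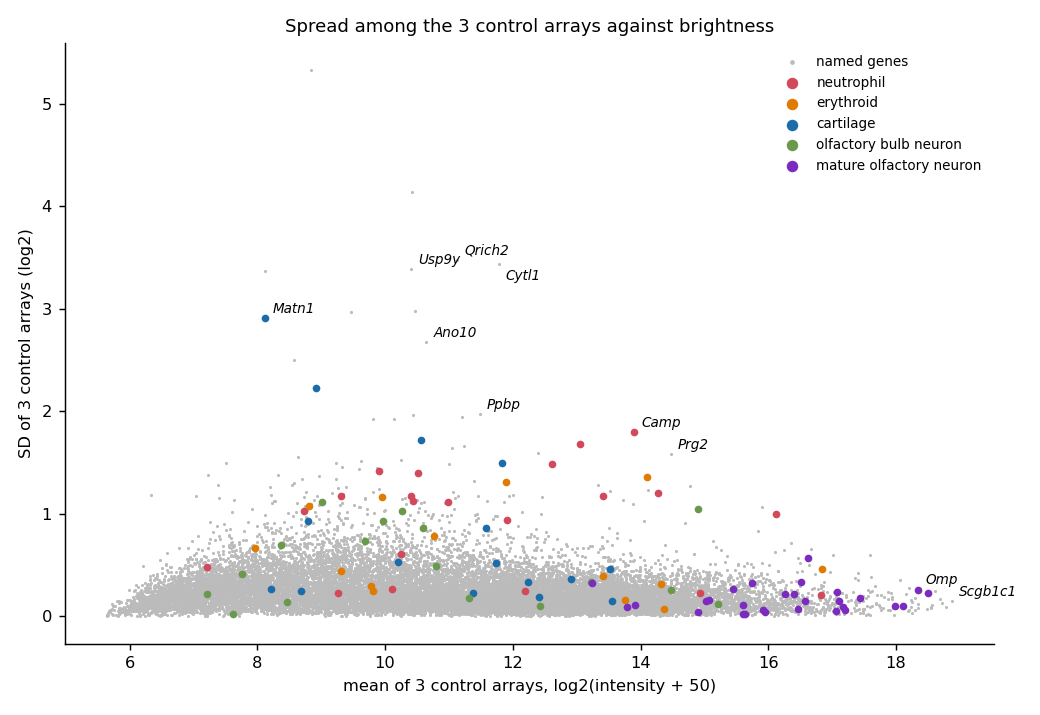
SD of log2(intensity + 50) over the 3 control arrays (vertical) against their mean (horizontal), with 1 grey point per named gene and 5 gene lists in colour. Many neutrophil (red), erythroid (orange) and cartilage (blue) genes lie above the grey cloud, while genes of mature olfactory neurons (purple) lie at the bright, low-spread end.

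Neutrophil genes were the list with the largest share of variable members, and those members were highest in the same array. Of 21 neutrophil genes, 15 (71.4%) had a range above 2-fold, against 7.28% of all features. Replicate 2 was the highest array for all 15, a combination found in 1.94% of all features. All gene lists were chosen with earlier results of these data known, so such shares are no independent support. The median deviation of the 21 genes from their own 3-array mean was -0.90, 1.10 and -0.04 (log2) in replicates 1, 2 and 3. Camp, the cathelicidin antimicrobial peptide, gave 4355, 53350.5 and 14950, a 12.1-fold ratio of highest to lowest after adding the pseudocount of 50. Ngp, neutrophilic granule protein, gave 2867, 29568 and 7028 and Mpo, myeloperoxidase, 2165, 17293 and 6311. In all 3 genes replicate 1 was lowest and replicate 3 between. Elane, neutrophil elastase, gave 508, 3846 and 1406, and Cebpe, the transcription factor of granule formation, 249.7, 1467 and 512. The calgranulin S100a9 gave 36088, 143987 and 69619 and Lcn2, lipocalin 2, 11960.2, 52166 and 12476. The dim probe of S100a8, the partner of S100a9, ran otherwise, with 597, 465 and 643 and its lowest value in replicate 2. Replicate 2 was highest for 19 of the 21 genes and replicate 1 lowest for 18, against 28.3% and 20.4% of all features. Summed over the list, the signal was 211592, 528484 and 275983. Without replicate 2, 8 of the 21 genes still differed by more than 2-fold between replicates 1 and 3. Members with small spread included Ltf, lactoferrin, which glands also secrete, with 109886, 136441 and 103524, and Mmp9 with 26516, 31578 and 36352.

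Most erythroid genes (11 of 14) and the eosinophil genes Prg2 and Epx were also highest in replicate 2, while other blood cell lists were less uniform or ran otherwise. Over all features, 7.28% had a range above 2-fold, and 1.94% had such a range with replicate 2 highest. At any range, replicate 2 was highest for 28.3% of all features. Of 14 erythroid genes, 6 had a range above 2-fold and all 6 were highest in replicate 2, with median deviations of -0.40, 0.49 and -0.10 in the 3 replicates. Alas2, which starts haem synthesis in erythroid cells, gave 9744, 52157 and 10483, and Slc4a1, the band 3 anion exchanger, 1474, 9367 and 3747. Klf1, the erythroid transcription factor, gave 1082, 3164 and 1409, whereas the haemoglobin gene Hbb-b1, also carried by circulating red cells, gave 91770.4, 169509 and 105138, a 1.85-fold ratio. Summed over the erythroid list the signal was 166124, 318075 and 187931. Without replicate 2, 2 of the 14 genes had a range above 2-fold. Eosinophil and mast cell genes had 5 of 13 beyond 2-fold, of which 4 were highest in replicate 2, and 1 of 13 without that array. Over any range, 9 of the 13 were highest and 4 lowest in replicate 2, with a median deviation there of 0.41. Prg2, eosinophil major basic protein, gave 8537, 74635 and 18141 and Epx, eosinophil peroxidase, 2245, 6687 and 3695, both highest in replicate 2, while the mast cell tryptase Tpsab1 gave 4212, 2014 and 3540.3 and was lowest there. Ppbp, a platelet chemokine, gave 613, 9959 and 3479. Of 21 B cell and plasma cell genes, 5 had a range above 2-fold, of which 4 were highest in replicate 2. Over any range, 11 of the 21 were highest there, the list's median deviation there was 0.04, and 0 of 21 had a range above 2-fold without that array. The 4 included Cd79b, a subunit of the B cell receptor, with 3935, 9322 and 3821 and Xbp1, a secretory cell factor that glands also express, with 82392, 140182 and 64316. Proliferation genes had 0 of 22 members beyond 2-fold, and 17 of the 22 were highest in replicate 2, among them Mcm2, a replicative helicase subunit, with 1551, 3019 and 1821. Macrophage and dendritic cell genes had 0 of 20 beyond 2-fold. T and NK cell genes had 1 of 19, highest in replicate 3. At any range, 12 of the 19 were highest in replicate 1, 3 in replicate 2 and 4 in replicate 3. The shares of all features were 40.4%, 28.3% and 31.3%, so replicate 1 was the most frequent highest array there too.

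Cartilage genes also stood out in replicate 2. Of 16 members, 8 had a range above 2-fold, against 7.28% of all features. All 8 were highest in replicate 2, a combination found in 1.94% of all features. The list's median deviations were -0.38, 0.54 and -0.14. Matn1, the cartilage matrix protein matrilin 1, gave 29.9, 2812 and 45.5, high in replicate 2 alone. Acan, the large proteoglycan of cartilage, gave 527, 5661 and 991, and Col2a1, its main fibrillar collagen, 1795, 12051 and 2136. Snorc, a chondrocyte proteoglycan, gave 153, 2833 and 144, with replicates 1 and 3 nearly equal. Cytl1, a cytokine-like protein made in cartilage and not on the list, gave 923, 54824 and 758. The members that did not differ 2-fold included Col11a2 with 11307, 11195 and 13490.1 and Matn4 with 2558, 2243 and 3102. Summed over the list the signal was 47756, 90484 and 53424. Without replicate 2, 0 of the 16 genes differed by more than 2-fold. Osteoblast genes had 1 of 13 beyond 2-fold (Col1a1, with 1403, 1509 and 2866) and osteoclast genes 0 of 12. At any range, 9 osteoblast and 8 osteoclast genes were highest in replicate 3, against 31.3% of all features. Neutrophil, erythroid and cartilage lists together held 51 measured genes, of which 13 were among the 100 most variable features, all 13 highest in replicate 2. No label says how the mucosa was freed of bone, cartilage and blood, and the part of these tissues in the differences between arrays was not tested.

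**Figure D4:**
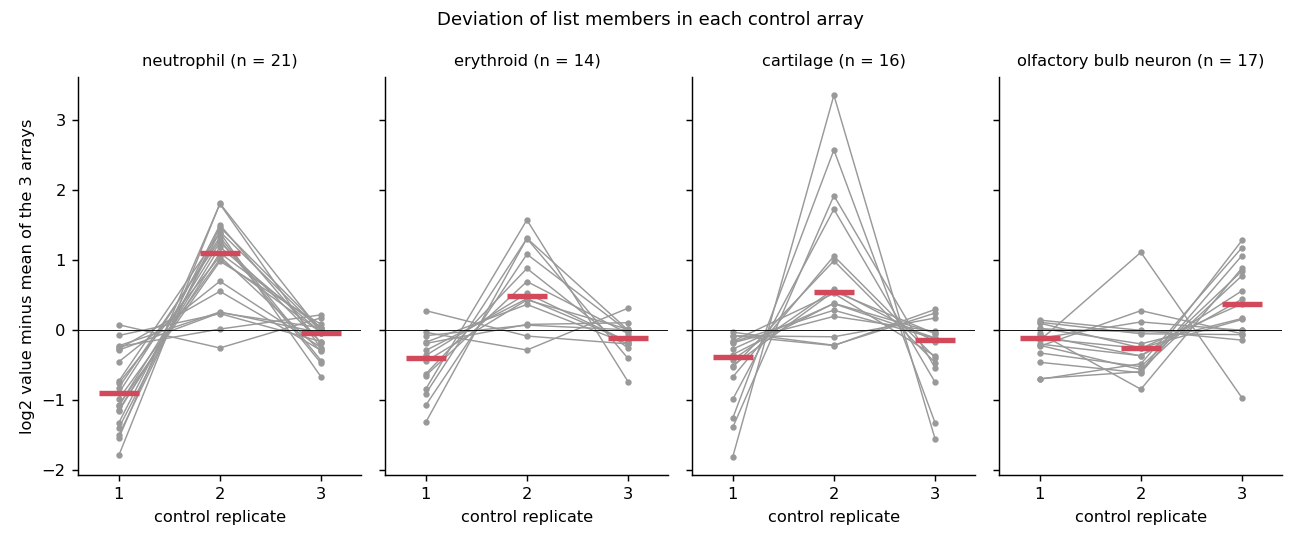
Deviation of each list member from its own mean over the 3 control arrays (vertical, log2), by control replicate (horizontal), for neutrophil, erythroid, cartilage and olfactory bulb genes. Each grey line is 1 gene and red bars are list medians. Neutrophil genes have medians of -0.90, 1.10 and -0.04, and olfactory bulb genes peak in replicate 3.

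Replicate 3 was set apart by neuronal genes of the olfactory bulb, the brain region that receives the axons of olfactory neurons. Of 17 bulb genes, 7 had a range above 2-fold, and 6 of those were highest in replicate 3, a combination found in 2.39% of all features. This list too was chosen with earlier results of these data known, so the share is no independent support. The list's median deviations were -0.12, -0.26 and 0.38, and without replicate 3, 1 of the 17 genes had a range above 2-fold, against 4 without replicate 2. Slc32a1, the vesicular transporter of inhibitory neurons, gave 676, 604 and 2039, and Slc17a7, that of excitatory neurons, 1449, 813 and 2816. The interneuron factor Dlx1 gave 269, 291 and 1201, and its relative Dlx2 233, 173 and 514. Th, the first enzyme of dopamine synthesis, gave 609.8, 526 and 1435, and Doc2g, a mitral and tufted cell gene, 708, 834 and 2740.5. Replicates 1 and 2 read close to each other for Slc32a1, Dlx1 and Doc2g. Gad1, which synthesises GABA, ran otherwise, with 27639, 66167 and 15620.2, its highest value in replicate 2, while Gad2 gave 1509, 1339 and 2592. The summed signal of the list, 105563, 155708 and 110122, was highest in replicate 2 through Gad1. Of genes chosen after their values were seen, the synaptic gene Cplx1 gave 546, 679.6 and 4034. Zic1, a transcription factor of bulb interneurons, gave 343, 360.4 and 1787, and Opcml, a neuronal adhesion gene, 403, 335 and 4146. All 3 were highest in replicate 3, but so chosen they support nothing further. Neurod6, a factor of cortical excitatory neurons, was dim, with 148, 143 and 146.

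Muscle, fibroblast and vessel genes were also more often highest in replicate 3 than in replicates 1 or 2. Of 16 skeletal muscle genes 13 were highest there, of 21 fibroblast genes 14 and of 18 endothelial and vessel wall genes 11, against 31.3% of all features. A range above 2-fold was found in 2 muscle genes (12.5%), 0 fibroblast genes and 1 vessel gene (Rgs5), against 7.28% of all features. Median deviations in replicate 3 were 0.32 for muscle, 0.17 for fibroblast and 0.11 for vessel genes. The muscle value was close to the 0.38 of the olfactory bulb list, as was the median SD, 0.39 against 0.41. The bulb list had the larger share beyond 2-fold, 41.2%. Rgs5, a pericyte gene, gave 19153, 23638 and 5456 and was lowest in replicate 3, against the direction of its list. Among the most variable genes, Amelx, the enamel protein amelogenin, gave 2023, 683 and 5698. Its 2 other probes gave 1392, 75.4 and 2648, and 1677, 13.0 and 3619, in the same order of arrays.

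Genes of antigen presentation were lowest in replicate 3. All 10 MHC class II genes measured had their lowest value there, where 24.4% of all features did, with median deviations of 0.11, 0.25 and -0.42. H2-Aa, an MHC class II alpha chain, gave 69090.4, 58155 and 40301, Cd74, the invariant chain, 31939.5, 35612 and 21818 and Ciita, the regulator of the class, 556, 723 and 248. Ciita and H2-Ob were the 2 members beyond 2-fold, and both are dim. The count was 0 without replicate 3 and 1 without replicate 2. Ciita controls the class II genes together, so these are not 10 independent observations.

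Interferon-stimulated genes were most often highest in replicate 1. Of 16 interferon-stimulated genes, 4 had a range above 2-fold and 3 of these were highest in replicate 1, a combination found in 2.96% of all features. Over any range, 11 of the 16 were highest in replicate 1, against 40.4% of all features. The count beyond 2-fold was 2 without replicate 1, 1 without replicate 2 and 4 without replicate 3, so it did not rest on replicate 1 alone. Gbp2 gave 9065, 4025 and 3991 and Gbp3 4479.5, 2022 and 2730.4. Rsad2, an antiviral enzyme, went otherwise, with 1621, 4479.9 and 1841, and the 2'-5'-oligoadenylate synthetase gene Oasl2 gave 22115, 19712 and 21574, close to even. Oas1f, a gene of the same family that was not on the list, gave 3346, 4766 and 525, low in replicate 3.

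A subset of the secreted proteins varied widely between arrays. Of the 30 gland and odorant-binding genes, 8 (26.7%) had a range above 2-fold, against 7.28% of all features. Of these 8, 6 were highest in replicate 2 and 2 in replicate 3, combinations found in 1.94% and 2.39% of all features. The count beyond 2-fold was 2 without replicate 2 and 4 without replicate 3. The lipocalin Lcn3 gave 9117, 30054 and 5819 and Lcn4 4181, 8497 and 1629. Muc5ac, a gel-forming mucin, gave 1266, 5622 and 1271. Bpifb5 gave 108851, 159365 and 64383 and Pip, given above, was also highest in replicate 2. Scgb2b27, a secretoglobin, gave 11486, 6336 and 21139.8, highest in replicate 3. Muc19, a gland mucin, gave 451, 5630.2 and 4637 on its brightest probe, but its 2 other probes gave 425, 270 and 395, and 448, 132 and 415, without the rise in replicates 2 and 3. The probes of Muc19 therefore disagree, and its rank among variable genes rests on 1 probe. Of the 82 named variable genes, 79 had 1 probe, and for the other 3, 2 of 5 additional probes were highest in the same array as the brightest probe. 

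No gene of mature or immature neurons, sustentacular cells, ciliated cells or oxidative phosphorylation had a range above 2-fold. Those lists comprised 29, 25, 18, 24 and 34 measured genes. A range above 2-fold was found in 7.28% of all features and in 4.08% of the 11816 brighter ones. A single list of this size can hold 0 to 2 such genes at these shares, so the counts in this paragraph set no single list apart. Samples were picked by Omp, so the evenness of other mature neuron genes is not independent of that choice. The globose basal, proliferation, tuft, vomeronasal neuron, osteoclast, fibroblast and macrophage lists also had 0 members beyond 2-fold. Most genes of the lists named first, from mature neurons to oxidative phosphorylation, are bright, and 1 of the 100 brightest features passed the same limit. The lists from globose basal to macrophage are dimmer, with median percentiles from 44.8 (vomeronasal neuron) to 77.7 (fibroblast). Xenobiotic metabolism had 1 of 32, Cyp4b1, with 14835, 25204 and 11335. Horizontal basal cell genes had 1 of 14 beyond 2-fold, Krt15, with 2941, 7211 and 2532 and its highest value in replicate 2. Among circadian genes, which follow the time of day, 1 of 18 did, Per3, with 15026, 6278 and 15451, while Dbp, a clock output gene, gave 38072, 33522 and 51268. Immediate early genes, which respond to handling within minutes, had 2 of 20 beyond 2-fold, Fosl2 with 1761, 4444 and 1577 and Btg2 with 347, 143 and 312, and Fos gave 1917, 1679 and 1827. The labels give no time of collection.

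Among the brighter 50% of features, the largest spreads belonged to single genes on no list. Qrich2 had the largest SD, with 8209, 9691 and 87.6, low in replicate 3. On the 6 arrays of the other groups it read 88.8 to 141, which spans neither replicate 1 nor replicate 2. Ano10, a member of the anoctamin family, gave 4618, 138 and 4611, low in replicate 2 alone, and read 4306 to 5638 on the other 6 arrays. Slc27a1, a fatty acid transporter, gave 47569, 10092 and 45265, again low in replicate 2, and read 41012 to 59224 on the other 6. For both genes the other 6 arrays read in the range of replicates 1 and 3 or close to it. Cytl1, given above, read 676 to 2089 on the other 6 arrays and Acan 426 to 858, in each case far below replicate 2. Camp read 13192 to 51668 there, so replicate 2 was just above that range and replicate 1 well below it. Usp9y, a Y-linked gene of the dimmer 50% by mean, chosen after its values were seen, gave 436, 208 and 19907. It read 390.0 to 541 on the other 6 arrays, so replicate 3 alone was high. H2ac23, a histone gene, gave 27001, 31539 and 6602, low in replicate 3, and Ifitm6 gave 1262, 6620.2 and 2499, high in replicate 2. Counting features more than 2-fold below both other control arrays gave 24 for replicate 1, 538 for replicate 2 and 142 for replicate 3, of which 8, 275 and 22 were also more than 2-fold below all 6 treated arrays. The features more than 2-fold above both other control arrays numbered 23, 128 and 74, of which 4, 11 and 4 were also above all 6 treated arrays by as much. The 538 features low in replicate 2 had a median percentile of 38.1. No array or gene is called an outlier, since 3 arrays do not allow such a test.

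**Figure D5:**
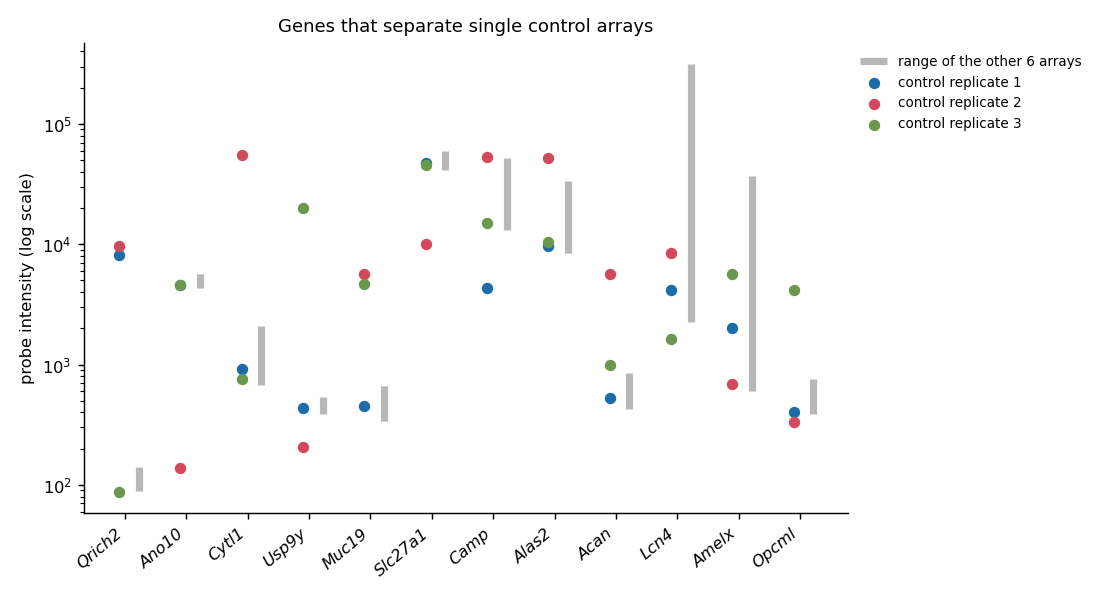
Probe intensity (log axis) of 12 genes that separate single control arrays. Coloured points are the 3 control replicates and grey bars span the lowest to the highest of the other 6 arrays. Ano10 and Slc27a1 are low in replicate 2 alone, Cytl1 and Acan are high in replicate 2 alone, and Usp9y and Opcml are high in replicate 3 alone.

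The genes that varied among the control arrays also tended to vary within the treated groups, each taken by itself. Of the 100 most variable features, 63 were among the 10% most variable of the same features within the D1 arrays, and 34 within the WK2 arrays. Their median SD was 0.59 within D1 and 0.40 within WK2, against 0.16 and 0.29 for all features in the brighter 50%. Neutrophil genes had a median SD of 1.12 in the control group, 1.01 within D1 and 0.45 within WK2. Cartilage genes had 0.49, 0.20 and 0.30. Olfactory bulb genes had 0.41, 0.30 and 0.23, and genes of mature olfactory neurons 0.15, 0.19 and 0.26. Whether these spreads differ between groups was not tested.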

How the data were processed

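RNA of the olfactory mucosa (1 µg a sample, RIN of at least 7) was amplified, labelled with Cy5 and hybridised to 1-colour arrays, per the labels' protocols. The authors deposited 1 linear intensity per probe and array, with some values below 0; no source used here states the scaling, scanner or software. From the deposited intensity, values below 0 were set to 0 and log2(intensity + 50) was taken, with no further normalization, and no log2 values came from the authors. Of the probes, 21876 had 1 gene symbol, 0 several and 4547 none, and 21825 were brought to current symbols by gene ID (RefSeq, GRCm38.p6). For the 2424 genes with over 1 probe the brightest was kept.

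Only the 3 control arrays were described: percentiles of mean log2 values, SD (n = 3), the range from highest to lowest array (called variable above 1), and list medians. The most variable genes were taken from the brighter 50% of features. Genes were named as the 40 brightest, the 30 most variable, up to 4 brightest and 4 most variable members of a list, its defining markers and the 4 tissue markers; other list members and genes on no list were picked after their values were seen. The gene lists and members were chosen with earlier results of these data known. No test was run, and the number of arrays limits the precision. The procedure was tested on simulated data. Alternatives were quantile, median and cyclic loess scaling (limma 3.58.1 in R 4.3.3), other pseudocounts, probe rules and filters, and leaving out each array. Python 3.11.15, numpy 2.4.6, pandas 2.3.3 and matplotlib 3.10.9 were used.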

Additional observations from a re-analysis of the deposited data

How the results depend on the processing

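Membership of the 100 brightest features was stable: 85 to 100 were shared under every alternative run, with the fewest when unnamed probes were left out. The 100 most variable features depended more on the choices. Of them 51 were shared when unnamed probes were left out, 37 with no filter on dim features and 24 when the dimmest 75% were left out, where the set of features differs by construction; quantile, median and loess scaling kept 93, 88 and 94. Leaving out 1 array kept 34 to 67. The count of features with a range above 2-fold, 1721, was 425 with a pseudocount of 500, 2493 with one of 16, and 351 to 1255 with 1 array left out. The median deviation of neutrophil genes in replicate 2 stayed between 0.61 and 1.21 over the alternatives, that of erythroid genes between 0.32 and 0.59, that of cartilage genes between 0.34 and 0.65, and that of olfactory bulb genes in replicate 3 between 0.15 and 0.38. The counts of list members with 1 array left out, given beside the lists the text describes as variable, were added after seeing the data. No paired analysis was possible because no result comes from a test between groups.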

Other observations

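Some probes switched between near 0 and a bright signal from one control array to the next, and were picked after their values were seen. Top2b, a DNA topoisomerase, gave intensities of 32452, 1.37 and 6.74 in replicates 1, 2 and 3. Mycbp2, a ubiquitin ligase of neurons, gave 7403, 0 and 6871. Glycam1, a mucin-like adhesion molecule, gave 3074, 6613 and 85.0. Each of these genes also spanned a wide range on the other 6 arrays, from -2.19 to 38414 for Top2b, from -9.75 to 6933 for Mycbp2 and from 82.3 to 4683 for Glycam1. Syndig1, a synaptic membrane protein, was bright and uneven at once, with 28707, 125795 and 62663. The cause of these differences was not tested.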
